A study of Mus musculus with 6 samples.

Results

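The lysyl oxidase family consists of the genes Lox, Loxl1, Loxl2, Loxl3 and Loxl4, and its transcripts were followed in RENCA, an established mouse renal adenocarcinoma cell line, after forced expression of the water channel gene Aqp1. The 5 members were taken by gene symbol from a table of 78298 genes. They are also the 5 genes in the table whose deposited annotation carries the lysyl oxidase domain. The family was nominated through Lox, which had the lowest fold change among mesenchymal genes in an earlier analysis of these counts. The values of Lox are therefore given as a description with no test, and the other 4 members came in by name.

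Lysyl oxidases are secreted amine oxidases that need copper and a quinone cofactor made from their own polypeptide. They oxidise lysines of collagen and elastin to aldehydes, which then condense into the crosslinks that give matrix its tensile strength. Lox and Loxl1 form one branch and carry a propeptide that is removed outside the cell, whereas Loxl2, Loxl3 and Loxl4 form the other and carry scavenger receptor cysteine-rich (SRCR) domains ahead of the catalytic domain. In tumours, LOX and LOXL2 are known as genes induced by low oxygen and are linked to matrix stiffening and spread.

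The comparison had 2 groups of 3 samples each. The oe-AQP1 cells carried a lentivirus with Aqp1, and the oe-NC cells carried the corresponding control lentivirus. Both groups received 2 μg/mL puromycin for 14 days, starting 48 h after transduction, and no label divided the 6 samples into batches. Cells without any lentivirus were not part of the comparison, and each group is a set of samples from a drug-selected line, so p-values measure the spread between these samples. RNA was sequenced in bulk, in which fewer cells of a type and less RNA per cell cannot be told apart.

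Libraries held between 18385714 and 21920899 expected counts, that is, reads assigned to genes, which may be fractions where a read was divided among genes. Aqp1 had 7713, 8545 and 7838 counts in oe-AQP1 samples 1, 2 and 3 and 41, 25 and 45 in oe-NC samples 1, 2 and 3, matching the labels. Sample 1 of oe-NC stood apart from its group: its counts differed from those of its 2 group mates by chi-square values of 9.75 and 11.3 per gene, against 1.74 to 2.06 for the 4 other pairs within a group. Where an adjusted p printed below crossed 0.05 without this sample, both values are given. Some other values that moved are given in the same way. Of 8 renal epithelial markers, 7 passed the low-count filter, and 5 of these were lower at an adjusted p under 0.05 (median log2 fold change −0.41). The list had a summed level of 785 to 814 CPM (read counts scaled to library size) in oe-AQP1 and 955 to 1057 CPM in oe-NC, while Epcam was at 0 in every library. Among these 7, Pax2, a renal transcription factor, was highest in log2 fold change at 0.25 (adjusted p = 0.124), and at 0.41 without oe-NC sample 1 (adjusted p = 3.99e-06). Krt19, a keratin, was lowest at −0.97 (adjusted p = 0.0403), a call that was kept in 1 of the 6 fits with a sample left out and was lost, among others, without oe-NC sample 1 (adjusted p = 0.104). The part of these markers in the values of the members was not tested.

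The catalytic domain is what joins the 5 genes, so the stretch around its copper-binding histidines is shown to let the members be compared at the letters. It was found by translating the canonical GENCODE M39 transcripts and has 36 bases that encode 12 residues, 4 of them histidines. Below it is printed 5′ to 3′ on the coding strand with the histidine codons in capitals.
Loxl1: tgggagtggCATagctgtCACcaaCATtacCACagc
Loxl2: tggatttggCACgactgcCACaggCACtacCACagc
Loxl3: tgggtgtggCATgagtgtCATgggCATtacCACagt
Loxl4: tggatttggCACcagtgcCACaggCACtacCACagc
On GRCm39 these coding bases lie within chr9:58201000-58201664 on the minus strand for Loxl1, chr14:69919765-69926489 on the plus strand for Loxl2, chr6:83026976-83027109 on the plus strand for Loxl3 and chr19:42587243-42588338 on the minus strand for Loxl4. In all 5 members an intron splits the stretch after its base 23, leaving 13 bases in the next exon. The split falls between exons 3 and 4 in Lox and Loxl1, between exons 10 and 11 in Loxl2 and Loxl3, and between exons 11 and 12 in Loxl4. Lox and Loxl1 share 35 of the 36 bases and all 12 encoded residues, and Loxl2 and Loxl4 share 34 bases and 11 residues. Every pair across the 2 branches shares 24 to 27 bases and 9 residues, and Loxl3 shares 27 bases and 9 residues with each of Loxl2 and Loxl4.

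The 5 genes sit on 5 chromosomes. On GRCm39, Lox (ENSMUSG00000024529) occupies chr18:52649136-52663110 on the minus strand, with 7 exons in its canonical transcript. Loxl1 (ENSMUSG00000032334) is at chr9:58195014-58220495 on the minus strand with 7 exons. Loxl2 (ENSMUSG00000034205) is at chr14:69846209-69933283 on the plus strand with 14 exons, and Loxl3 (ENSMUSG00000000693) is at chr6:83011152-83029543 on the plus strand with 14 exons. Loxl4 (ENSMUSG00000025185) is at chr19:42580711-42601252 on the minus strand with 15 exons. In the deposited annotation all 5 are assigned to copper ion binding, to collagen fibril crosslinking and to elastic fibre formation.

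Among the members that came in by name, Loxl3 was higher in oe-AQP1, Loxl4 was lower, and Loxl1 and Loxl2 did not pass the test. Lox, through which the family was nominated, was at 0.461 times its control level in oe-AQP1, given as a description. Among Loxl1, Loxl2, Loxl3 and Loxl4, 1 was higher and 1 was lower at an adjusted p under 0.05. Over the 15522 genes that passed the filter, 16% were higher and 16.6% lower at that threshold, and 5.23% also had an absolute log2 fold change above 1 (4.39% higher and 0.844% lower). The members are too few for their counts to be set apart from these shares. Lox exceeded that fold, but its value chose the family, and the other members did not exceed it. CPM values are scaled by the trimmed mean of M-values (TMM) throughout.

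Lox, the founding member and the main crosslinker of fibrillar collagen and elastin, had 378, 439 and 430 counts in oe-AQP1 and 817, 805 and 946 in oe-NC. Scaled to depth, this was 19.1, 20.0 and 20.9 CPM in oe-AQP1 samples 1, 2 and 3 and 41.6, 44.0 and 44.4 CPM in oe-NC samples 1, 2 and 3. Every oe-AQP1 sample lay below every oe-NC sample, with a wide gap between the groups. The means were 20.0 ± 0.899 and 43.3 ± 1.5 CPM (SD, n = 3 each). The log2 fold change was −1.12 with a standard error of 0.06, and it ranged from −1.15 to −1.09 as each sample was left out in turn. Of the genes that passed the filter, 119 had a lower log2 fold change, a place that only describes Lox, since this value chose the family. Sample 1 of oe-NC, which stood apart, had the lowest Lox level of its group, and the log2 fold change without it was −1.14.

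Loxl1, the other member of that branch, is known for elastic fibre maintenance. It had 290, 293 and 260 counts in oe-AQP1 and 440, 273 and 346 in oe-NC, or 14.7, 13.3 and 12.6 CPM against 22.4, 14.9 and 16.2 CPM. The highest oe-AQP1 value and the lowest oe-NC value were nearly touching, and oe-NC sample 1 was far above its 2 group mates. The means were 13.5 ± 1.03 and 17.9 ± 4.0 CPM (SD, n = 3 each), and the log2 fold change of −0.38 (SE 0.14) did not pass the test (limma adjusted p = 0.0608). Without oe-NC sample 1 it was −0.21 (adjusted p = 0.0599), and without oe-NC sample 2 it was −0.49 (adjusted p = 0.0282).

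Loxl2 acts on basement membrane collagen, and a role in the nucleus has also been described for it. It was the least abundant member, with 25.1, 34.0 and 44.2 counts in oe-AQP1 and 29.7, 21.0 and 26.8 in oe-NC. These were 1.26, 1.55 and 2.14 CPM against 1.53, 1.15 and 1.27 CPM, so that the groups overlapped. The log2 fold change was 0.30 (SE 0.25, adjusted p = 0.397), with a 95% interval from −0.26 to 0.85.

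Loxl3, a crosslinker needed in palate and cartilage development, had 536, 558 and 526 counts in oe-AQP1 and 445, 390 and 452 in oe-NC. The levels were 27.1, 25.4 and 25.6 CPM in oe-AQP1 and 22.7, 21.3 and 21.2 CPM in oe-NC. All 3 oe-AQP1 samples were above all 3 oe-NC samples. The means of 26.0 ± 0.946 and 21.7 ± 0.811 CPM (SD, n = 3 each) gave a ratio of 1.20 and a log2 fold change of 0.26 (SE 0.06, adjusted p = 0.00934). The adjusted p stayed under 0.05 with each of the 6 samples left out.

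Loxl4, the most abundant member, had 1817, 2045 and 1869 counts in oe-AQP1 and 2461, 1957 and 2424 in oe-NC. At 91.9, 93.0 and 90.9 CPM, the oe-AQP1 samples were close together and all below the oe-NC samples at 125, 107 and 114 CPM. The means were 91.9 ± 1.05 and 115 ± 9.27 CPM (SD, n = 3 each), a ratio of 0.797 and a log2 fold change of −0.33 (SE 0.06, adjusted p = 0.00165). Without oe-NC sample 1 the log2 fold change was −0.27 (adjusted p = 4.06e-06).

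**Figure D1:**
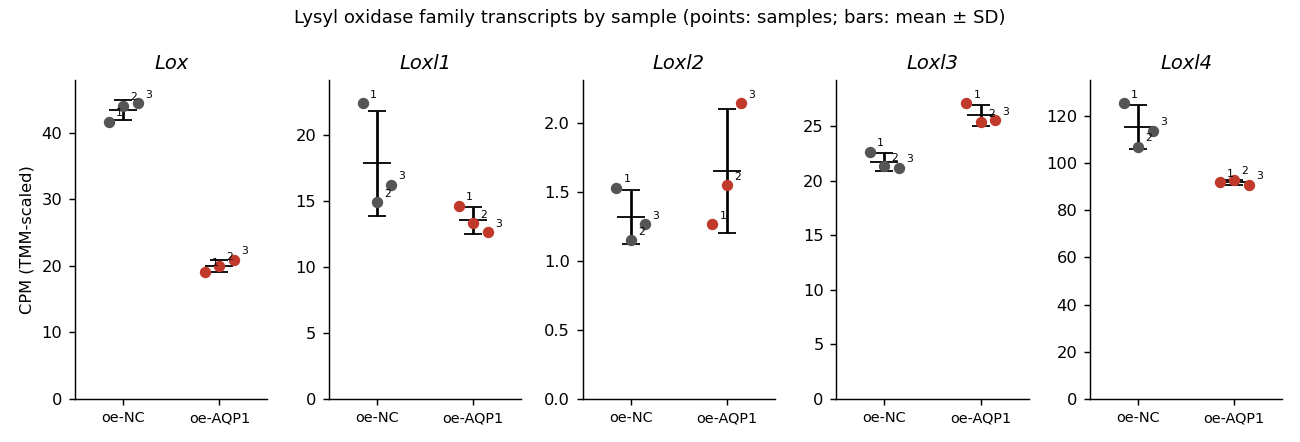
TMM-scaled CPM of each member, in its own panel with an axis from 0, for oe-NC (grey) and oe-AQP1 (red). Points are samples with their number and black bars are the mean ± SD of 3 samples; the groups are apart for Lox, Loxl3 and Loxl4, nearly touch for Loxl1 (14.7 against 14.9 CPM) and overlap for Loxl2.

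Among the members not chosen by their values, the 2 groups were apart for Loxl3 and Loxl4, narrowly apart for Loxl1, and overlapped for Loxl2. Groups without overlap were seen for 47.3% of all genes that passed the filter. Lox, whose value chose the family, was also without overlap. The spread within a group differed between members. For Lox, Loxl3 and Loxl4 the coefficient of variation within a group was between 1.14% and 8.03%. That of Loxl1 in oe-NC was 22.4%, where counting alone would give 5.32%, and oe-NC sample 1 was the one far from the others. Loxl2 varied by 27.1% in oe-AQP1 and 14.8% in oe-NC, where counting alone would give 17.0% and 19.7%, and its standard error was the largest in the family.

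**Figure D2:**
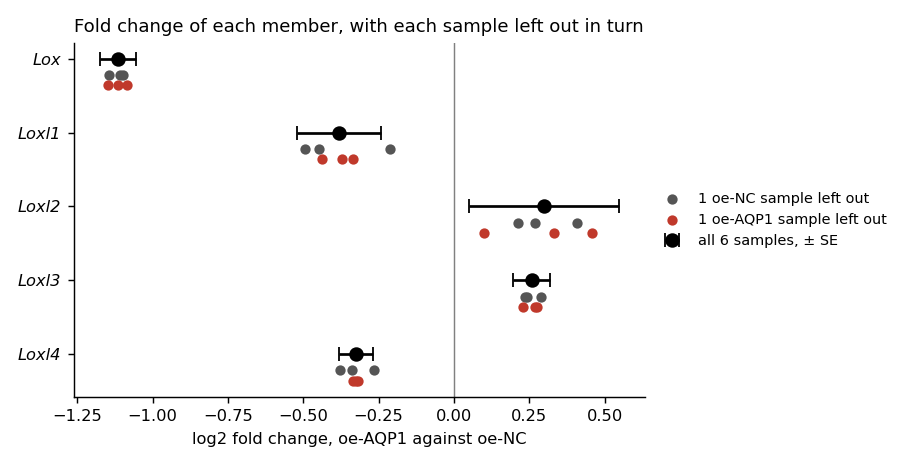
log2 fold change of each member in oe-AQP1 against oe-NC, with all 6 samples (black, ± standard error) and with 1 sample of either group left out (coloured points). Lox stayed between −1.15 and −1.09 and Loxl3 between 0.23 and 0.29, whereas Loxl1 moved between −0.49 and −0.21.

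Levels between members were compared per kilobase of exon. In oe-NC, Loxl4 led at 19.3 ± 1.55 CPM per kilobase (SD, n = 3, as for the values that follow), and Lox was next at 8.79 ± 0.305. Loxl3 at 4.65 ± 0.173 and Loxl1 at 4.52 ± 1.01 were close, Loxl3 being at 1.21 and 1.10 times Loxl1 in oe-NC samples 2 and 3 and at 0.855 times in oe-NC sample 1, and Loxl2 was last at 0.238 ± 0.035. In oe-AQP1 the order among the middle members was another one, a change that involves Lox, whose value chose the family. Loxl4 still led at 15.4 ± 0.176 CPM per kilobase, but Loxl3 at 5.56 ± 0.202 was above Lox at 4.06 ± 0.182. Loxl1 followed at 3.42 ± 0.260, and Loxl2 was again last at 0.299 ± 0.081. When the longest transcript replaced the union of exons, Lox at 4.18 ± 0.188 and Loxl1 at 4.07 ± 0.309 overlapped in oe-AQP1.

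The sum of the 5 levels was 28.7 ± 0.243 CPM per kilobase in oe-AQP1 and 37.5 ± 2.46 in oe-NC. The share of Lox in this sum was 13.4%, 14.1% and 14.9% in the oe-AQP1 samples and 21.0%, 25.3% and 24.4% in the oe-NC samples. The share of Loxl3 was 19.4% ± 0.562 in oe-AQP1 and 12.4% ± 0.431 in oe-NC. The share of Loxl4 stayed at slightly more than the sum of the others, with 53.5% ± 0.624 and 51.4% ± 0.784. The SRCR branch (Loxl2, Loxl3 and Loxl4) made up 73.9% ± 0.161 of the family in oe-AQP1 and 64.5% ± 0.410 in oe-NC. These shares all contain Lox in the sum, whose value chose the family, and the summed level of the SRCR branch was itself 21.2 ± 0.168 CPM per kilobase in oe-AQP1 and 24.2 ± 1.74 in oe-NC.

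**Figure D3:**
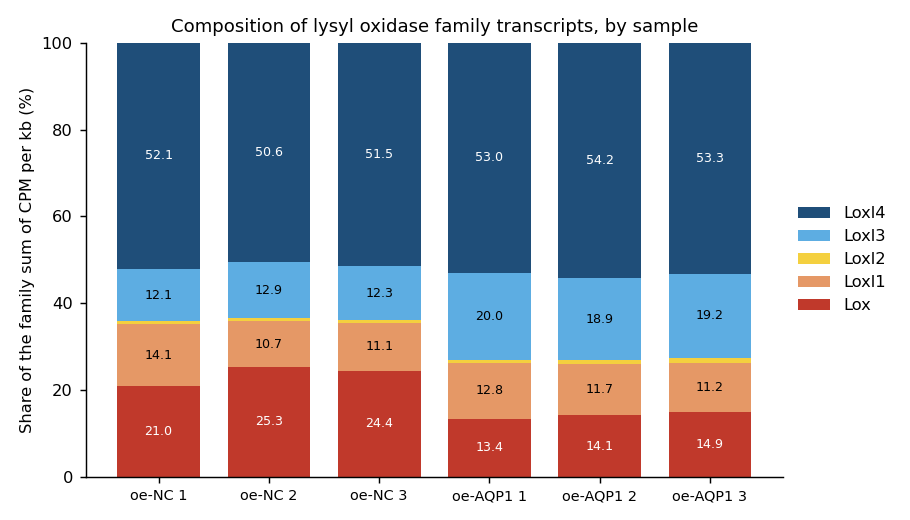
Share of each member in the summed CPM per kilobase of the 5 members (vertical axis, percent), stacked for each sample. The Lox share lies between 21.0% and 25.3% in oe-NC and between 13.4% and 14.9% in oe-AQP1, the Loxl3 share is larger in oe-AQP1, and the thin unlabelled layer is Loxl2.

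Ratios within a sample do not depend on how libraries are scaled. Per kilobase, Lox was 1.74, 1.96 and 1.99 times Loxl3 in the oe-NC samples and 0.669, 0.746 and 0.776 times Loxl3 in the oe-AQP1 samples. Lox over Loxl3 contains the value that chose the family, so it is a description only. Loxl4 was 4.32, 3.92 and 4.19 times Loxl3 in oe-NC and 2.65, 2.86 and 2.78 times in oe-AQP1. For this ratio the difference in log2 was −0.58, lower in 3 of 3 oe-AQP1 samples than in any oe-NC sample. The ratio does not involve Lox, but Loxl4 and Loxl3 had passed the test in opposite directions, so it restates their fold changes. The 2-sided exact permutation p of 0.1 is the smallest that 3 samples against 3 can give. It was fixed once both members separated the groups in opposite directions, and it adds no support.

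Of the members, only Loxl4 was matched in the RefSeq promoter table (1 of 5), and its promoter is shown for that reason. The window runs from 250 bases before to 50 bases after the start that RefSeq annotates on GRCm38.p6. The same 300 bases were found once on chromosome 19 of GRCm39, at chr19:42601196-42601495 on the minus strand. The sequence is printed 5′ to 3′ on the coding strand, and capitals mark matches to the motifs searched on both strands.
Loxl4: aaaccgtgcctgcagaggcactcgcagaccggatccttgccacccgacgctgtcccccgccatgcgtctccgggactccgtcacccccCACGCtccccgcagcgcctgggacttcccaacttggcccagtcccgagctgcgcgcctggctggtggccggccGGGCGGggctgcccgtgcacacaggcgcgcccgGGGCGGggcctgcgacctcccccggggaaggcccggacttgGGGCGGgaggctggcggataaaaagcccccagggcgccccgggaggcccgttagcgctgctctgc
It holds 3 matches to the GC box GGGCGG, present in 35.9% of the 32544 promoters of the table, and 1 match to GCGTG, a core bound by hypoxia-inducible factors, present in 32.6%. It holds no match to the other hypoxia core ACGTG (19.7% of promoters), to TATAAA (13.6%), to the AP-1 site TGANTCA (7.79%) or to the core of the interferon-stimulated response element, a pair of GAAA blocks 2 bases apart (3.45%). No 2 of the matches overlapped. The GC content of the window was 75%, against a median of 53% over the promoters of the table.

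Genes that overlap a member on the other strand could share reads with it, since it is not stated whether the counting used the strand. Htra2, a mitochondrial protease gene, overlaps 25.3% of the exon bases of Loxl3, and its log2 fold change was 0.08 (adjusted p = 0.129), or 0.09 without oe-NC sample 1 (adjusted p = 0.0261). R3hcc1 overlaps 17.1% of the exon bases of Loxl2 and had a log2 fold change of −0.04 (adjusted p = 0.724). R3hcc1l shares 78 exon bases with Loxl4, or 1.30% of them, and had a log2 fold change of 0.25 (adjusted p = 0.0369). This call was kept in 1 of the 6 fits with a sample left out, the one without oe-NC sample 1 (0.34, adjusted p = 0.00102), and the adjusted p reached 0.140 in the others. The noncoding genes Gm41724 and Gm57034 share 30 exon bases with Lox and 160 with Loxl1, and had at most 33 and 5 counts in a library. Gm27177 shares 301 exon bases with Loxl2 and had a log2 fold change of 0.03 (adjusted p = 0.844), Mir6950 shares 7 with Loxl2 and was at 0, and Gm37513 and Mir7040, which overlap introns of Loxl2 and Loxl3, were at 0. The counts of Lox, Loxl1 and Loxl4 were whole numbers in every sample, and those of Loxl2 and Loxl3 were not, so some of their reads had been divided with other genes. Htra2 had 1874 to 2386 counts in a library, against 390 to 558 for Loxl3. R3hcc1 had 609 to 771 and Gm27177 had 103 to 142, against 21.0 to 44.2 for Loxl2. How many reads of Loxl3 and Loxl2 came from these genes was not tested.

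Of 10 nearest protein-coding neighbours 7 passed the filter and 3 of these passed the test, as did 32.5% of all genes that passed the filter. So few neighbours cannot be set apart from that share. Srfbp1, 21362 bases from Lox, was higher in oe-AQP1 (log2 fold change 0.29, adjusted p = 0.00631), and Stoml1, 23654 bases from Loxl1, was higher as well (0.64, adjusted p = 0.00200). Pyroxd2, 112591 bases from Loxl4, was lower (−0.26, adjusted p = 0.0375), a call kept only without oe-NC sample 1 or oe-NC sample 2 and lost when any other sample was left out (adjusted p up to 0.143). Dok1 and Aup1, at 694 and 1311 bases from Loxl3, had log2 fold changes of 0.09 and 0.12 (adjusted p = 0.338 and 0.166), and Aup1 was at 0.19 without oe-NC sample 1 (adjusted p = 8.78e-05). Entpd4b and Chmp7 beside Loxl2 had −0.16 and 0.03 (adjusted p = 0.0788 and 0.657), and Entpd4b was at −0.21 without oe-NC sample 3 (adjusted p = 0.0427). Zfp474 beside Lox, Tbc1d21 beside Loxl1 and Crtac1 beside Loxl4 were below the filter, at no more than 13 counts in a library.

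Pearson's r of log2 CPM was taken with 10803 genes of a mean of at least 100 counts, or 10804 for Loxl2, itself below that mean. The 3 genes whose level followed each member most closely over the 6 samples are named. For Lox these were Itga1, a collagen-binding integrin chain, Aldh1l2 and Nedd4, each with r above 0.999. For Loxl1 they were Pex6 (r = 0.999), Smarcb1 and C030006K11Rik, and for Loxl2 Pced1a (r = 0.987), Ppcdc and Slc66a2. For Loxl3 they were Fam53c (r = 0.996), Sh3bp5l and Procr, and for Loxl4 Slc12a7 (r = 0.999), Cenpb and Tgfb3. The 6 points share the group difference and the same libraries, so these values only describe which genes had the same profile.

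The genes around the enzymes were read from 10 lists, chosen by role, with 100 genes, of which 68 passed the filter. Over all of them, 10 were higher and 38 lower at an adjusted p under 0.05, or 70.6% of the genes that passed, against 32.5% of all genes. The lists were chosen with earlier results of these data known, and their counts were not matched to those of all genes. The 2 shares are therefore a description only. The median log2 fold change was −0.31 over the 68 and 0.00 over all genes.

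The collagen substrates that passed the test were lower in oe-AQP1, apart from Col24a1. Of 11 fibrillar collagen genes 8 passed the filter, with 1 higher and 4 lower and a median log2 fold change of −0.59. Col5a2, a chain of type V collagen, had 0.455 to 0.924 CPM in oe-AQP1 and 1.75 to 2.16 CPM in oe-NC (log2 fold change −1.48, SE 0.28, adjusted p = 0.00243). Col24a1 was the one higher gene, with 16, 16 and 12 counts in oe-AQP1 and 2, 1 and 2 in oe-NC, a ratio of 8.36 with a 95% counting interval of 3.32 to 27.0. Without oe-NC sample 1 there were 2 higher genes and 3 lower. Among the 4 lower genes, Col5a3, named after its values were seen, was at −0.72 (adjusted p = 0.0351). Its call was kept in 1 of the 6 fits with a sample left out. The call was lost, among others, without oe-NC sample 1 (−0.65, adjusted p = 0.0862) and with DESeq2 (adjusted p = 0.137). Named after their values were seen, Col1a1 was at 1.90 ± 0.071 CPM per kilobase in oe-AQP1 and 3.21 ± 0.662 in oe-NC, and Col3a1 had at most 2 counts in a library.

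Among the 17 genes of the 2 collagen lists, Col4a4 of the basement membrane list had the highest level per kilobase. Of 6 type IV genes, 4 passed the filter, with 2 lower and a median of −0.61, and 1 gene was higher without oe-NC sample 1. Col4a4 was at 16.4 ± 0.288 CPM per kilobase in oe-AQP1 and 33.0 ± 3.02 in oe-NC (log2 fold change −1.003, SE 0.06, adjusted p = 7.69e-07, and −0.93 without oe-NC sample 1). Its partner chain Col4a3 was at 4.24 ± 0.124 and 8.87 ± 0.486 CPM per kilobase (−1.06, SE 0.05, adjusted p = 2.11e-07). Both are chains of the collagen network of the mature glomerular basement membrane, and their groups did not overlap.

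Elastic fibre genes numbered 17, and 11 passed the filter, with 2 higher, 6 lower and a median of −0.33. Ltbp1, which holds latent TGF-beta in the matrix, rose from 2.19 to 2.80 CPM in oe-NC to 10.5 to 12.1 CPM in oe-AQP1 (log2 fold change 2.22, SE 0.15, adjusted p = 1.67e-06). Leaving out oe-AQP1 sample 1, oe-AQP1 sample 2 or oe-NC sample 3 left 1 higher gene. There were 5 lower genes without oe-NC sample 1, oe-AQP1 sample 2 or oe-NC sample 3, and 7 without oe-NC sample 2. Eln, which encodes elastin and is named here after its values were seen, had 0 to 2 counts in a library. A floor of 3 counts corresponds to 0.137 to 0.163 CPM in these libraries, counting error only.

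Transcripts for the processing of procollagen and the Lox propeptide were read from 9 genes. Of these 4 passed the filter, with 1 higher, 3 lower and a median of −0.33. Adamts14, a procollagen N-proteinase, had 11, 26 and 13 counts in oe-AQP1 and 3, 1 and 5 in oe-NC (log2 fold change 2.30, SE 0.53, adjusted p = 0.00771). The 3 lower genes, named after their values were seen, were Bmp1, which cleaves procollagen and the Lox propeptide (−0.34, SE 0.07, adjusted p = 0.00379), and its enhancers Pcolce (−0.32, adjusted p = 0.00011) and Pcolce2 (−0.77, adjusted p = 0.000148). Fn1 and Postn, matrix proteins that take part in this processing and were named in the same way, had at most 11.1 and 1 counts in a library.

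Copper handling was nearly level, with a median of −0.04 over the 8 of 9 genes that passed, 1 higher and 1 lower (2 lower without oe-NC sample 1). Slc31a2, a copper transporter of internal membranes, was higher at 54.2 to 56.0 CPM against 35.1 to 37.3 CPM (log2 fold change 0.59, SE 0.05, adjusted p = 1.11e-05). Mt1, a metal-binding metallothionein, was lower at 53.5 to 57.4 CPM against 73.9 to 94.1 CPM (−0.65, SE 0.09, adjusted p = 0.000286). Atp7a, the pump that loads copper onto secreted enzymes and is named here after its values were seen, had a log2 fold change of 0.18 (SE 0.09, adjusted p = 0.165).

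Collagen-modifying enzymes of the endoplasmic reticulum numbered 17, of which 11 passed, with 1 higher, 7 lower and a median of −0.20. Plod3, a lysyl hydroxylase, was higher at 253 to 256 CPM against 170 to 206 CPM (log2 fold change 0.46, SE 0.06, adjusted p = 0.000312). P3h2, a prolyl 3-hydroxylase, was lower at 70.0 to 71.4 CPM against 99.6 to 110 CPM (−0.56, SE 0.05, adjusted p = 1.1e-05). Among 3 other copper amine oxidases 1 passed the filter, Aoc2 at −0.45 (SE 0.14, adjusted p = 0.0311), and it lost the call without oe-AQP1 sample 1, oe-AQP1 sample 2 or oe-NC sample 2, which left 0.

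Genes that are known to respond to signals acting on Lox were also read. Of 12 hypoxia targets 11 passed the filter, with 1 higher, 9 lower and a median of −0.59. Bnip3, a mitophagy receptor, was at 60.3 to 63.6 CPM in oe-AQP1 and 156 to 169 CPM in oe-NC (log2 fold change −1.38, SE 0.05, adjusted p = 5.84e-09), and Ankrd37 had −1.40 (SE 0.25, adjusted p = 0.00200). Of 10 TGF-beta targets 6 passed, with 1 higher, 5 lower and a median of −0.34, and 3 were lower without oe-AQP1 sample 3. The higher gene was Skil, a SMAD repressor, at 0.26 (adjusted p = 0.00353). Over all genes that passed the filter, 16.6% were lower at an adjusted p under 0.05. The part of hypoxia or TGF-beta signals in the level of Lox was not tested.

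Transcription factors of the epithelial-mesenchymal transition numbered 6, and 4 passed, with 2 higher and a median of 0.16. Zeb2 was at 0.39 (SE 0.06, adjusted p = 0.000594) and Snai1 at −0.03 (SE 0.10, adjusted p = 0.877). Leaving out any oe-AQP1 sample, oe-NC sample 2 or oe-NC sample 3 left 1 higher gene, and leaving out oe-NC sample 1 gave 3.

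**Figure D4:**
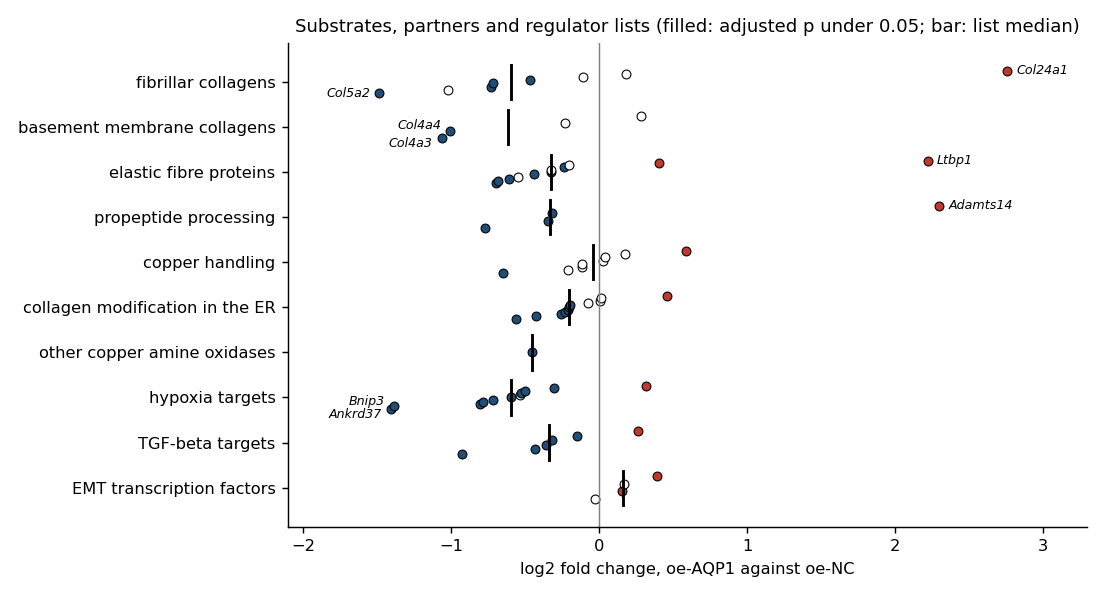
log2 fold change in oe-AQP1 against oe-NC for the 68 genes of the 10 lists that passed the filter, 1 point per gene. Filled points have an adjusted p under 0.05 (blue lower, red higher), vertical bars are list medians (from −0.61 for basement membrane collagens to 0.16 for the transcription factors), and named genes also exceed an absolute log2 fold change of 1; the position of Col24a1 rests on 5 counts in oe-NC.

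Of the 20 markers of other cell types, 14 did not pass the filter. Of 8 fibroblast markers 2 passed the filter, Pdgfrb, a growth factor receptor (log2 fold change 0.34, adjusted p = 0.00284), and Col1a1 (−0.73, adjusted p = 0.00238). Their list summed to 56.0 to 57.9 CPM in oe-AQP1 and 51.0 to 65.0 CPM in oe-NC, Thy1 was at 0, and Dcn and Lum had at most 1 count in a library. Of 7 macrophage markers 3 passed, with 2 lower, a median of −0.52 and a sum of 47.7 to 50.9 CPM in oe-AQP1 and 55.7 to 58.6 CPM in oe-NC. Adgre1 was at 0, Ptprc had at most 3 counts, and Csf1r, the receptor of a macrophage growth factor, was lower (−1.51, SE 0.13, adjusted p = 1.31e-05), as was the lysozyme gene Lyz2, named after its values were seen (−0.52, adjusted p = 0.000273). Of 5 endothelial markers 1 passed, Pecam1 at 0.17 (adjusted p = 0.731), with Kdr and Emcn at 0 and a sum of 0.860 to 1.59 CPM in oe-AQP1 and 0.711 to 1.41 CPM in oe-NC. The part of such cells in the values of the members was not tested.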

How the data were processed

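RNA of 6 RENCA samples (3 oe-AQP1, 3 oe-NC, grouped by their labels) was sequenced in pairs from TruSeq libraries. The authors deposited expected counts per gene, not scaled between samples, whose 2-decimal values show reads divided among genes. Their methods name GRCm39, while the submitters' processing notes list GRCm38, mm10, fastp, HISAT2, featureCounts and Subread without roles; the strand setting is not given in the sources used here. Columns of group means in the deposited table were not used. The members and lists were chosen with earlier results of these data known.

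The expected counts were brought to whole numbers by rounding and were tested with limma-voom 3.58.1 (edgeR 4.0.16, R 4.3.3). TMM scaling and the thresholds (Benjamini-Hochberg adjusted p under 0.05, absolute log2 fold change above 1) follow the study's methods. The low-count filter, filterByExpr by group, was chosen here and kept 15522 of 78298 genes, over which p-values were adjusted. Interferon-response genes, which the study set aside, were kept in. Positions and exon lengths are those of GENCODE M39, which holds 78168 of the genes. Intervals of fold changes use the moderated test's 9.91 degrees of freedom. These intervals include the spread between samples. With 18385714 to 21920899 expected counts per library, the counting interval of the Col24a1 ratio and the count floor cover counting error only. Promoters came from RefSeq (GRCm38.p6).

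Named genes were the 5 members, Aqp1, in each list the genes past both thresholds (at most 4) or otherwise the highest and the lowest, the 3 genes most like each member, and overlapping or nearest genes; 1 list gene that this rule names is not reported here. DESeq2 1.42.0, edgeR's quasi-likelihood test, other scalings and filters, unrounded counts, sample weights, a replicate block and leaving out each sample were alternatives.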

Additional observations from a re-analysis of the deposited data

How the results depend on the processing

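No member and no count reversed its direction in the alternatives run. Some named genes that had not passed the test changed sign: without oe-NC sample 1, Snai1 was at 0.08 and R3hcc1 at 0.02, and without oe-NC sample 2, Pecam1 was at −0.11 and Gm27177 at −0.05. R3hcc1l and Pyroxd2 lost their calls with DESeq2 (adjusted p = 0.0785 and 0.0842). The log2 fold change of Lox ranged from −1.15 to −1.09 as samples were left out. With the adjusted p alone, 5050 genes were called in place of 812; with no filter beyond 1 count, 0 members were higher, Loxl3 having an adjusted p of 0.0575; and with the longest transcript as length, the share of Lox in oe-AQP1 was 13.3%. Loxl1 passed the threshold with DESeq2 (adjusted p = 0.0213), with sample quality weights (0.0465) and without oe-NC sample 2 (0.0282), and the cause was not tested. With a mean of at least 10 counts, the higher calls Col24a1 and Adamts14 were not tested, since the filter removed them. DESeq2 and the lighter filter each left 1 higher elastic fibre gene, 1 higher transition factor and 0 lower copper amine oxidases, and sample weights gave 2 higher fibrillar collagens, 1 higher basement membrane collagen and 2 lower copper genes. Depth limits Loxl2 most, with 21.0 to 44.2 counts per library.

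Sample numbers did not pair the groups: same-numbered deviations correlated at 0.009, −0.004 and −0.068. The replicate block called 786 genes, Loxl1 then had an adjusted p of 0.0111, 1 transition factor was higher and 0 copper amine oxidases were lower.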
